A study of Mus musculus with 9 samples.

Results

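Calponins, transgelins, tropomyosins and the actin and myosin genes of contractile fibres were examined in B.END3 cells, a cell line from mouse brain endothelium, after photodynamic therapy (PDT), in which a photosensitizer is excited by light. The set held 10 of the 54532 listed genes, taken by name: the calponins Cnn1, Cnn2 and Cnn3, the transgelins Tagln and Tagln2, the actins Acta2 and Actb, the tropomyosins Tpm1 and Tpm2, and the myosin light chain Myl9. Cnn2 was picked for its measured rise at the higher light dose, so its values are a description and carry no test. The 9 RNA sequencing libraries comprised 3 of untreated cells (Ctrl), 3 of cells treated at 10 J/cm2 (Ep1) and 3 of cells treated at 20 J/cm2 (Ep2). Ep1 and Ep2 cells received porfimer sodium at 300 μg/mL for 90 min as a monolayer and were then exposed to a 635 nm laser at 100 mW/cm2. The time from light exposure to lysis for RNA is not given in the sources used here. The labels give strain C57BL/6 and cell type brain microvessel endothelium for all libraries, with the organism as mouse, while their growth protocol calls the cells rat. Ctrl received neither photosensitizer nor laser, so the effects of the drug alone and of the light alone cannot be told apart from PDT. Nothing in the labels says that the 3 libraries of a group came from separate cultures, so p-values measure the spread between these libraries, which may be technical.

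Actin filaments and non-muscle myosin build the stress fibres of endothelial cells, whose pull on junctions and on the substrate sets cell shape and barrier tightness. Tropomyosins lie along the filament and control access of myosin and severing proteins, calponins and transgelins bind and stabilise filaments, and phosphorylated regulatory light chains switch myosin on. Many of these genes are targets of serum response factor (SRF), which binds the CArG box, and its co-activators of the MRTF family are held back by free actin monomers. Cnn1, Tagln, Acta2 and Myl9 are best known from smooth muscle, whereas Cnn2, Cnn3, Tagln2 and Actb are widely expressed outside muscle.

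RefSeq promoter windows (GRCm38.p6, 250 bases before to 50 after a start position) were found for 8 of the 10 genes, not for Tagln and Actb. That position is the 5′ end of the gene in RefSeq for Cnn2, Cnn3 and Tagln2. For Cnn1, Acta2, Myl9, Tpm1 and Tpm2 it is another position, so their windows do not sit at the listed gene end. The Myl9 window is chr2:156775214-156775513, whereas the gene begins at 156775408 in RefSeq. The CArG box was searched in its strict form, CC and GG around 6 letters that are each A or T, so that near matches do not count. It stood in the windows of Cnn2 and Myl9, that is 2 of 8, and in 1.63% of all 32851 windows. Stretches of both are shown because these genes share the motif but lie far apart in level, and Cnn3 is shown as a widely expressed calponin whose whole window holds no such match. Each stretch has 110 bases of the plus strand, 5′ to 3′, with the CArG box in capitals. The box began 56 bases before the start position of the window for Cnn2 and 161 bases before that for Myl9. The stretch of Cnn3 lies at the same distance from the start position of its window as that of Myl9.
Cnn2, chr10:79988464-79988573: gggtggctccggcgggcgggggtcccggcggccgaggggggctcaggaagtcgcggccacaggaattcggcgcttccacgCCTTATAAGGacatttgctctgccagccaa
Myl9, chr2:156775223-156775332: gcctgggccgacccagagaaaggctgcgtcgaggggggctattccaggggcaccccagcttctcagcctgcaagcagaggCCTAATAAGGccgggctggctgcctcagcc
Cnn3, chr3:121426300-121426409: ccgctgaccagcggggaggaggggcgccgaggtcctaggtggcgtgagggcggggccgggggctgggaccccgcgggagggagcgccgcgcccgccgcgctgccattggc

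The SP1 box GGGCGG, searched on both strands, occurred in 6 of the 8 windows (Cnn2, Cnn3, Tagln2, Myl9, Tpm1 and Tpm2) and in 35.66% of all windows. The TEAD site CATTCC, also on both strands, occurred in 3 of 8 (Tagln2, Acta2 and Tpm1) against 14.66% of all windows, and the AP-1 site TGANTCA in 0 of 8 against 7.81%. No SP1 box overlapped the CArG box of Cnn2 or Myl9. A match describes letters in a window, not binding.

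Depth was similar in all groups, with 16240688 to 19509225 fragments on genes per library. Levels are in FPKM, fragments scaled to gene length and library size. An order between genes thus rests on the 1 length listed per gene, which is 6485 bases for Tpm1 and 2082 for Tagln2. Of the 10 genes, 6 met the filter for testing, FPKM 1 or more in 3 or more of the libraries (Cnn2, Cnn3, Tagln2, Actb, Tpm1 and Tpm2), as did 11727 genes in all. The 4 others (Cnn1, Tagln, Acta2 and Myl9) were near the counting limit and were not tested. In bulk RNA, fewer cells that express a gene and less RNA per cell cannot be told apart.

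The cells were checked against markers. Of 13 endothelial markers, 3 passed the filter, led by Flt1, a VEGF receptor, at 6.90 ± 0.206 FPKM in Ctrl (SD, n = 3), Egfl7 at 2.09 ± 0.291 and Eng at 1.32 ± 0.127. The defining markers Emcn and Erg were at 0 in all 9 libraries, and Pecam1 (0.143 FPKM), Cdh5 (0.857), Kdr (0.0407) and Cldn5 (0.0254) averaged below 1 FPKM in Ctrl, so most of the markers go against the endothelial label. The summed endothelial markers ran from 11.4 to 11.9 FPKM in Ctrl, from 11.3 to 13.1 in Ep1 and from 14.4 to 15.4 in Ep2. Most of each sum was Flt1, which rose to 10.9 ± 0.732 FPKM in Ep2 (log2 difference 0.59, SE 0.0676, limma with Benjamini-Hochberg adjustment, adjusted p = 9.67e-05). Egfl7 and Eng were lower in Ep2, at 1.65 ± 0.704 and 1.13 ± 0.124 FPKM, without a call (limma, adjusted p = 0.228 and 0.274). The shift of the sum thus came from Flt1. The part of this shift in the results below was not tested. Of 12 smooth muscle and mural markers, 2 passed, Smtn at 36.3 ± 2.56 FPKM and Des at 2.81 ± 0.445 in Ctrl, with Abcc9 and Kcnj8 at 0 throughout. Their sum, mostly Smtn, ran from 36.4 to 42.1 FPKM in Ctrl, from 40.4 to 44.7 in Ep1 and from 33.6 to 38.9 in Ep2. Of 6 fibroblast markers 1 passed, Col1a1 at 7.21 ± 0.0840 FPKM in Ctrl, and Postn was at 0. The sum, mostly Col1a1, ran from 7.56 to 7.69, from 6.27 to 7.20 and from 7.14 to 8.35 FPKM in the 3 groups.

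By FPKM, Actb was by far the most abundant of the set in untreated cells, followed by Tagln2, then Cnn3 and Tpm1, then Cnn2 and Tpm2. Among all listed genes of Ctrl they ranked 27 (Actb), 237 (Tagln2), 568 (Cnn3), 603 (Tpm1), 1281 (Cnn2) and 1294 (Tpm2). Neighbours in this order did not overlap between libraries except Cnn3 with Tpm1 and Cnn2 with Tpm2, whose ranges overlapped. Below them, Acta2 overlapped Myl9 and Tagln overlapped Cnn1. This order depends on the listed lengths: by fragments over the Ctrl libraries, Tpm1 had 30783, above Tagln2 with 21654 and Cnn3 with 14909.

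**Figure D1:**
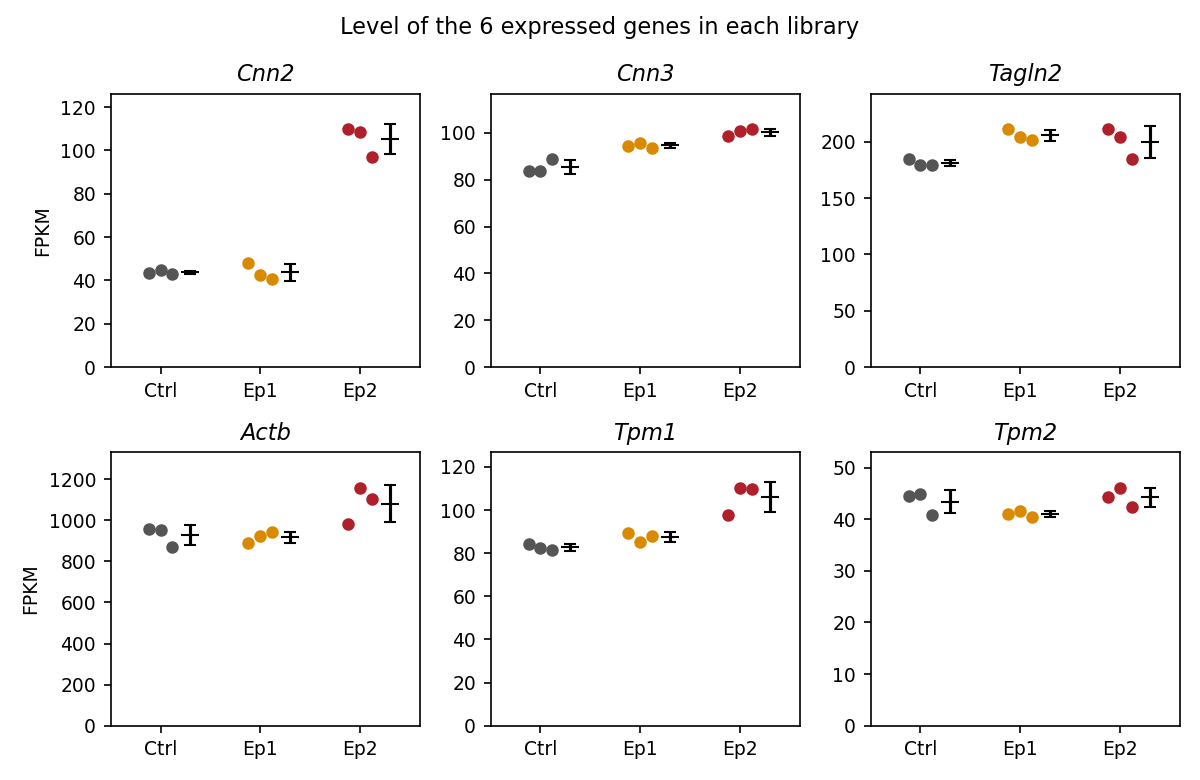
FPKM (y axis, from 0) of the 6 expressed genes in each of the 3 libraries of Ctrl, Ep1 and Ep2 (points), with mean ± SD in black. Cnn2 is the gene whose Ep2 libraries, at 97.2 to 110 FPKM, lie far above all others, which stay between 40.6 and 48.2, and in the other panels the groups lie much closer together.

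The calponins, which bind actin filaments and restrain myosin, showed 3 patterns. Cnn2 (chr10:79988584-79996062, plus strand) stood at 43.3, 44.6 and 43.1 FPKM in Ctrl, at 48.2, 42.4 and 40.6 in Ep1, and at 110, 108 and 97.2 in Ep2. The Ctrl and Ep1 libraries overlapped, and every Ep2 library lay above all 6 others. Means were 43.7 ± 0.810 FPKM (Ctrl), 43.7 ± 3.94 (Ep1) and 105 ± 6.91 (Ep2; ± SD, n = 3), a ratio of Ep2 to Ctrl of 2.40, resting on 3969 to 5147 fragments per Ep2 library and 1971 to 2148 per Ctrl library. On the log2(FPKM + 1) scale the difference was 1.24 between Ep2 and Ctrl and -0.00301 between Ep1 and Ctrl, and the former ranked 21 among the rises of the 11727 genes. These values come from the contrast that selected Cnn2. Of its neighbours on chromosome 10, Abca7, 431 bases downstream on the same strand, had 4.03 ± 0.321 FPKM in Ctrl and 3.37 ± 0.350 in Ep2, and Tmem259, 4253 bases upstream, had 27.0 ± 1.09 and 24.6 ± 0.742. Further out, Wdr18 had 15.3 ± 0.682 and 7.90 ± 0.420, and Arhgap45 had 18.6 ± 0.707 and 20.4 ± 1.77.

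Cnn3 (chr3:121426497-121458207, plus strand) read 83.9, 83.8 and 88.9 FPKM in Ctrl, 94.6, 95.6 and 93.7 in Ep1, and 98.7, 101 and 102 in Ep2. The groups did not overlap in any pair, and the levels stepped up with dose. The difference was 0.14 (SE 0.0368) in Ep1 versus Ctrl and 0.23 (SE 0.0368) in Ep2 versus Ctrl on the log2(FPKM + 1) scale, and both passed (limma, Benjamini-Hochberg adjusted p = 0.0376 and 0.000691). The step from Ep1 to Ep2, 0.08 with a 95% confidence interval of 0.000914 to 0.166, did not pass (limma, adjusted p = 0.0930). The Ep1 call was lost without Ctrl replicate 1 or 2, any of the Ep1 replicates or Ep2 replicate 2, with adjusted p (limma) between 0.0231 and 0.150 over the 9 omissions, while the Ep2 call held in all 9 (0.000809 to 0.00486). Cnn3 shares bases with the weakly counted Gm42929 on its own strand (2 to 19 fragments per library) and with Gm42928 on the other (2 to 10 fragments).

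Cnn1, the smooth muscle calponin, was close to absent, with 0, 1 and 2 fragments in the Ctrl libraries, 0, 0 and 1 in Ep1 and 1, 1 and 0 in Ep2. All 9 counts lie at or under the 3 fragments that a count of 0 allows, a limit that covers counting error only. No difference between groups was detectable at this depth.

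The transgelins, small relatives of the calponins that crosslink filaments, also divided into an abundant and a nearly absent gene. Tagln2 (chr1:172500047-172507380, plus strand) read 184, 179 and 180 FPKM in Ctrl, 211, 204 and 201 in Ep1, and 211, 205 and 184 in Ep2. All Ep1 libraries lay above all Ctrl libraries, and Ep2 replicate 3 lay within the Ctrl range. Ep2 passed against Ctrl with a log2 difference of 0.14 (SE 0.0514, limma, adjusted p = 0.0443), and Ep1, with 0.18 and a 95% confidence interval of 0.0653 to 0.296, did not (limma, adjusted p = 0.0523). The Ep2 call was lost in 8 of the 9 omissions of 1 library, all but that of Ep2 replicate 3 (limma, adjusted p 0.00294 to 0.127). Ep1 passed in 2 of 9 (0.0154 to 0.163), those of Ep2 replicates 1 and 3, which are outside that comparison. In the 7 other alternatives Ep1 passed in 4, among them only the groups compared (limma, adjusted p = 0.0123), and Ep2 in 5. The calls thus do not set the doses apart for Tagln2. Ep2 and Ep1 differed by -0.04, with a 95% confidence interval of -0.157 to 0.0740.

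Tagln (SM22), the smooth muscle transgelin, had 0, 2 and 1 fragments in Ctrl, 1, 3 and 1 in Ep1, and 2, 4 and 3 in Ep2. Only 1 library, Ep2 replicate 2, was above 3 fragments. The gene shares 108 bases with Pcsk7 on the opposite strand, which had 421 to 568 fragments per library, and overlaps Gm48529 (2 to 9 fragments), and whether counting used strand is not stated, so part of this count could belong to either.

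**Figure D2:**
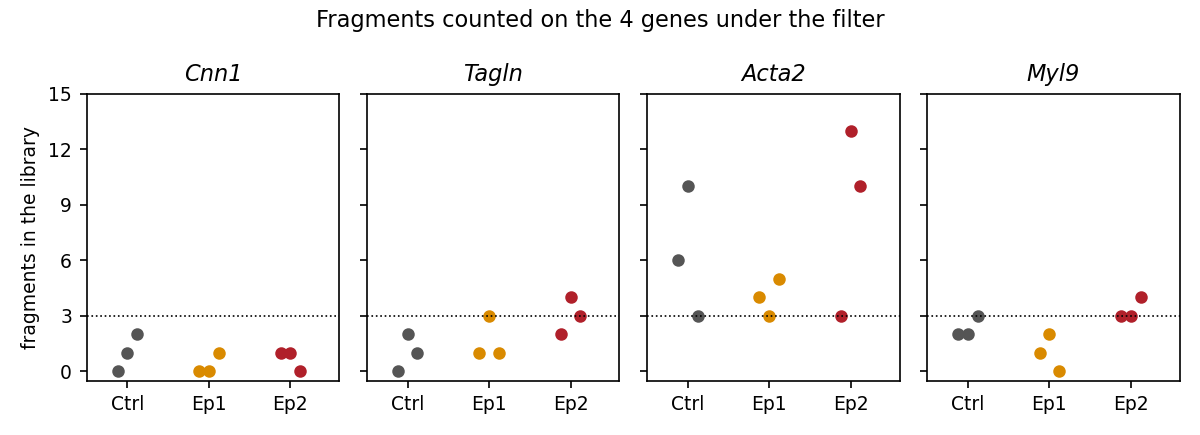
Fragments (y axis) counted in each library of Ctrl, Ep1 and Ep2 on Cnn1, Tagln, Acta2 and Myl9, with a dotted line at 3 fragments, the number a count of 0 allows. Cnn1 has at most 2 fragments, Tagln and Myl9 at most 4, and Acta2 between 3 and 13, with overlapping Ctrl and Ep2 libraries.

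The actins too included an abundant cytoplasmic gene and a muscle gene near the counting limit. Actb (chr5:142903115-142906754, minus strand), the main actin of non-muscle cells, read 958, 951 and 872 FPKM in Ctrl, 888, 923 and 941 in Ep1, and 983, 1159 and 1103 in Ep2. Ctrl and Ep1 overlapped, and the 3 Ep2 libraries lay above all 6 others. Means were 927 ± 47.8 (Ctrl), 917 ± 27.3 (Ep1) and 1082 ± 89.8 (Ep2). Ep2 exceeded Ctrl by 0.22 (SE 0.0637) and Ep1 by 0.23 (SE 0.0637) on the log2 scale (limma, adjusted p = 0.0158 and 0.0145), and Ep1 differed from Ctrl by -0.01 with an interval of -0.158 to 0.128. The call against Ctrl was lost without Ctrl replicate 3 (limma, adjusted p = 0.0587) or Ep2 replicate 2 (0.0612), in a range of 0.00159 to 0.0612 over the omissions, and that against Ep1 without Ep2 replicate 2 (0.0540, range 0.00176 to 0.0540).

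Acta2, the smooth muscle actin, had 6, 10 and 3 fragments in Ctrl, 4, 3 and 5 in Ep1, and 3, 13 and 10 in Ep2, or 0.0884 to 0.390 FPKM in Ep2. The groups overlapped, and the highest Ep2 library of 13 fragments stood beside one of 3. Actin genes resemble each other closely and have processed copies, so reads of Actb, Actg1 and Acta2 may have been shared between them in the authors' counting.

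Actb also matters as a reference, since qPCR values of the study were normalized to β-actin. The primers listed for actin are shown because they bear on which gene such a reference reads.
Forward: ctacaatgagctgcgtgtgg
Reverse: aaggaaggctggaagagtgc
Both have 20 bases. In the GENCODE M39 transcripts the forward primer had an exact match in Actb, Actg1 and Acta1. The reverse primer matched exactly in Actg1, with a 528-base product, but its best placement in any of 17 protein-coding Actb transcripts left 2 mismatches. Actg1 was the only protein-coding gene with both exact matches, beside 6 genes of other types named as pseudogenes or gene models. In these libraries Actg1, the γ cytoplasmic actin, went from 844.5 ± 20.7 FPKM (Ctrl) over 905 ± 69.0 (Ep1) to 1131 ± 93.6 (Ep2), and rose in Ep2 by 0.42 (SE 0.0701, limma, adjusted p = 0.000869).

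**Figure D3:**
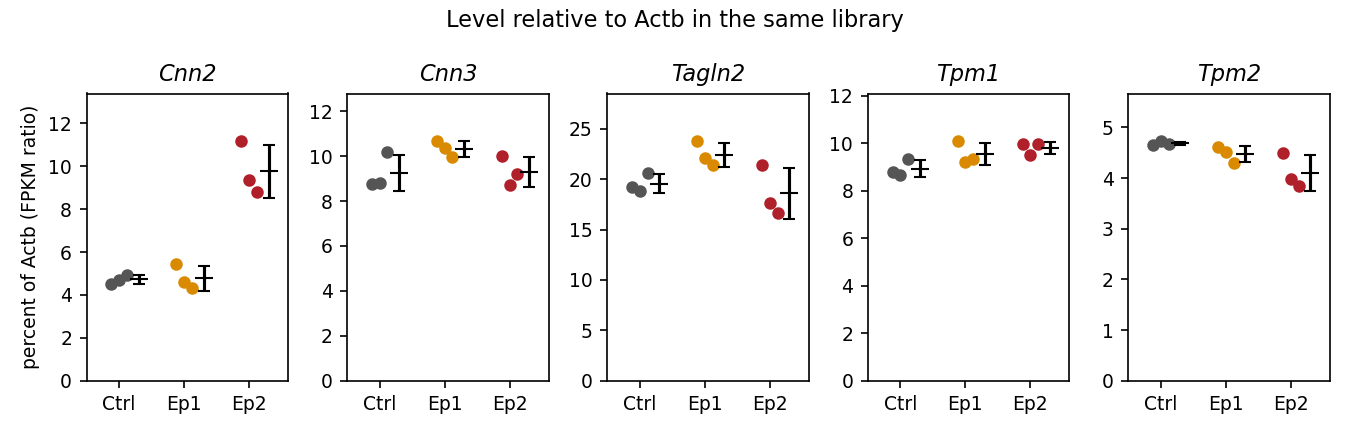
Level of 5 genes as a percent of Actb (ratio of FPKM, y axis from 0) in each library of Ctrl, Ep1 and Ep2 (points), with mean ± SD in black. Cnn2 has a mean of 4.72% in Ctrl and 9.77% in Ep2, Cnn3 of 9.26% and 9.31%, and Tpm2 of 4.69% and 4.11%.

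Set against Actb in the same library, Cnn2 stood at 4.52%, 4.69% and 4.95% of Actb in Ctrl and at 11.2%, 9.35% and 8.81% in Ep2, a ratio of the means of 2.07. Cnn3 had 9.26% ± 0.814 in Ctrl and 9.31% ± 0.673 in Ep2, and Tagln2 had 19.6% ± 0.921 and 18.6% ± 2.52. Tpm1 was 8.93% ± 0.361 in Ctrl and 9.82% ± 0.256 in Ep2, with all Ep2 libraries above all Ctrl libraries. Tpm2 was 4.69% ± 0.0376 in Ctrl and 4.11% ± 0.352 in Ep2, with all Ep2 libraries below. A ratio within a library shows unequal change of 2 genes, not which of them moved.

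The tropomyosins differed from each other. Tpm1 (chr9:67022590-67049406, minus strand) read 84.2, 82.3 and 81.4 FPKM in Ctrl, 89.4, 85.0 and 87.9 in Ep1, and 97.9, 110 and 110 in Ep2. The groups did not overlap, and Ep2 stood furthest out. Ep2 exceeded Ctrl by 0.35 (SE 0.0506) and Ep1 by 0.27 (SE 0.0506), and both calls (limma, adjusted p = 0.000342 and 0.00207) held in all 9 omissions of a library. Ep1 versus Ctrl gave 0.08 with a 95% confidence interval of -0.0334 to 0.194 and did not pass (limma, adjusted p = 0.323).

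Tpm2 (chr4:43514711-43523765, minus strand) read 44.6, 45.0 and 40.8 FPKM in Ctrl, 41.0, 41.7 and 40.5 in Ep1, and 44.3, 46.1 and 42.3 in Ep2. Ctrl overlapped both doses, and Ep2 lay above Ep1 without overlap. That step from Ep1 to Ep2, 0.10 with a 95% confidence interval of -0.00609 to 0.215, did not pass (limma, adjusted p = 0.113). The differences from Ctrl were -0.08 in Ep1 and 0.03 in Ep2 (limma, adjusted p = 0.319 and 0.685), and the 95% confidence interval of the latter ran from -0.0850 to 0.137. Both genes make several isoforms that one value per gene cannot separate.

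Myl9, a regulatory light chain of smooth muscle and non-muscle myosin, had 2, 2 and 3 fragments in Ctrl, 1, 2 and 0 in Ep1, and 3, 3 and 4 in Ep2. Of the 9 libraries 1 was above 3 fragments. The related regulatory light chain Myl12a stood at 61.8 ± 2.63 FPKM in Ctrl.

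Over the 5 tested genes without Cnn2, 1 was higher in Ep1 than in Ctrl (Cnn3) and 0 were lower, where 6.32% of all tested genes were higher and 4.97% lower. In Ep2 versus Ctrl 4 were higher (Tpm1, Cnn3, Actb and Tagln2) and 0 lower, against 23.9% and 29.3% of all genes. In Ep2 versus Ep1 2 were higher (Tpm1 and Actb) and 0 lower, against 18.8% and 25.2%, and under median centring, which shifts each library to the same median, 4 were higher. That centring turned the split of all calls between Ep2 and Ep1 from 2206 higher and 2950 lower to 2974 and 2383, and that between Ep2 and Ctrl from 2800 and 3436 to 3311 and 2971. The median difference of the 5 genes was 0.08, 0.22 and 0.10 in the 3 comparisons, beside -0.01, -0.03 and -0.01 over all tested genes. The comparisons share libraries, so their values are not independent. Without Ctrl replicate 3 or Ep2 replicate 2, 2 of the 5 passed in Ep2 versus Ctrl.

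**Figure D4:**
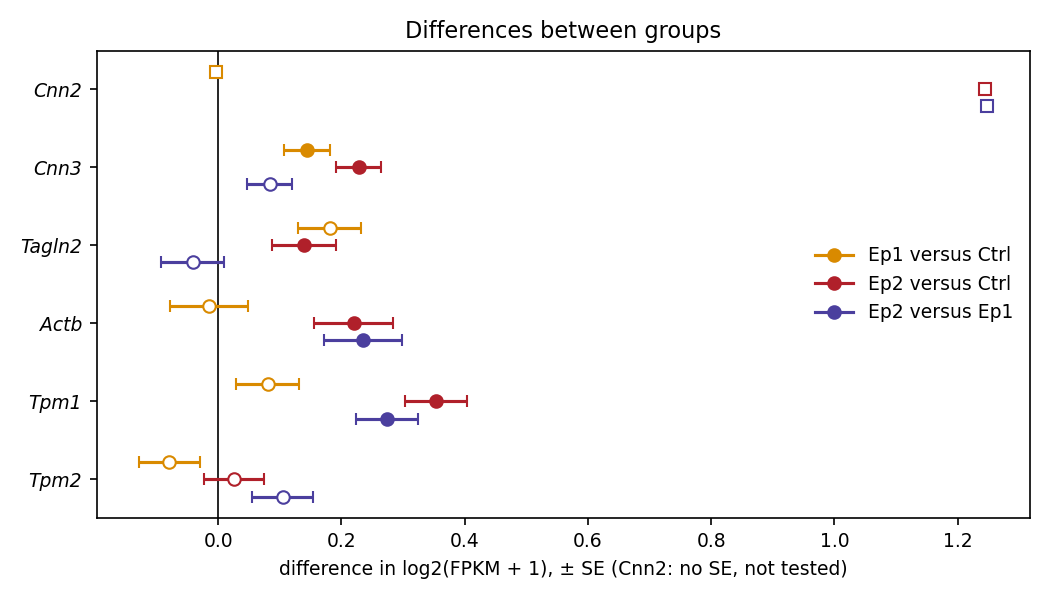
Difference in log2(FPKM + 1) (x axis) with its SE for the 6 expressed genes in Ep1 versus Ctrl (orange), Ep2 versus Ctrl (red) and Ep2 versus Ep1 (violet), with filled circles at an adjusted p below 0.05 and squares without error bars for Cnn2, which was not tested. Cnn2 lies at 1.24 and 1.25 in both comparisons with Ep2, and the 5 other genes lie between -0.08 and 0.35.

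Genes with a profile close to Cnn2 were sought among 11721 tested genes outside the set, by the root mean square difference of gene-centred log2(FPKM + 1) over the 9 libraries. The closest were Aldoc (0.116), a glycolytic aldolase, Neu1 (0.117), a lysosomal sialidase, Vldlr (0.119), a lipoprotein receptor, Gm37855 (0.142) and Prune2 (0.161). Gm37855 averaged 0.679 (Ctrl), 0.893 (Ep1) and 2.66 FPKM (Ep2), so it passed the filter only through Ep2, and at such levels the pseudocount of 1 shrinks its differences. Aldoc had 33.7 ± 2.23 FPKM (Ctrl), 31.9 ± 5.33 (Ep1) and 69.2 ± 4.03 (Ep2). The 5 other expressed genes of the set were further away, from 0.451 for Tpm1 to 0.571 for Tagln2.

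Around the set, 54 other genes of the actin cytoskeleton were grouped by role into 4 lists, which share some genes, and 47 of them were tested. These lists were drawn up with earlier results known, and their counts are a description. In Ep2 versus Ctrl 27 were higher and 5 lower, with a median difference of 0.23, where the background was 23.9% higher and 29.3% lower. In Ep1 versus Ctrl 6 were higher and 2 lower, with a median of 0.02, beside 6.32% and 4.97% of all genes. The Ep1 counts changed on omission of 1 library: 1 gene was higher without Ctrl replicate 1 or 2 or without Ep1 replicate 1 or 3, with 0 lower, 4 were higher and 0 lower without Ep1 replicate 2, 1 was lower without Ctrl replicate 3, and 11 were higher and 3 lower without Ep2 replicate 1. Calls over all genes fell as well, from 1324 to 392 and 192 without Ctrl replicate 1 or 2. Without Ep1 replicate 1 or 3 they fell to 379 and 199. In Ep1, 3 were also lower without Ep2 replicate 3. In Ep2, 26 to 28 were higher and 5 to 6 lower over all omissions.

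**Figure D5:**
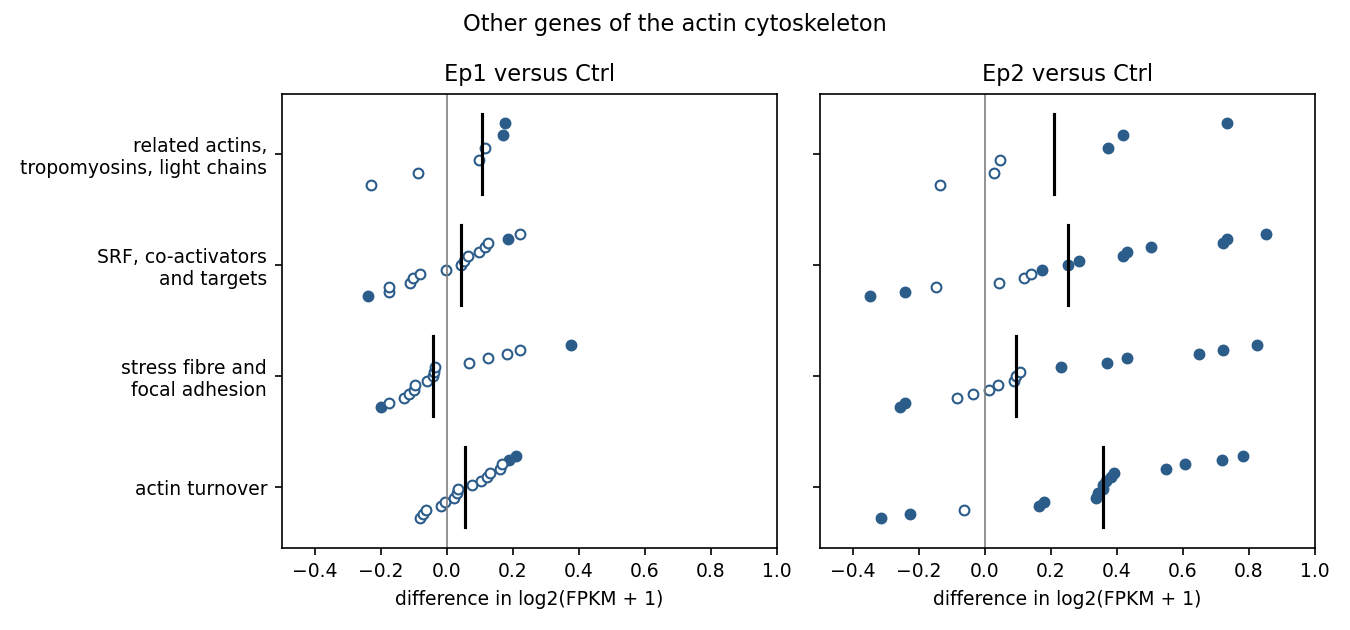
Difference in log2(FPKM + 1) (x axis) of each tested gene of the 4 lists in Ep1 versus Ctrl (left) and Ep2 versus Ctrl (right), filled at an adjusted p below 0.05, with a black line at each list's median. The points spread further to the right in Ep2, where the median is 0.36 for actin turnover and 0.10 for stress fibre and focal adhesion genes.

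Among the relatives of the set, 6 of 10 were tested, and 2 were higher in Ep1 (Myl12a and Tpm3), 3 in Ep2 (Tpm4, Actg1 and Myl12a) and 0 lower in either, with medians of 0.11 and 0.21. Over all tested genes 6.32% were higher and 4.97% lower in Ep1, and 23.9% and 29.3% in Ep2. Tpm4, a further non-muscle tropomyosin, showed the largest rise in Ep2, from 187 ± 7.22 FPKM in Ctrl to 313 ± 32.5 (log2 difference 0.73, SE 0.0732, limma, adjusted p = 4.48e-05), with 203 ± 9.63 in Ep1 (adjusted p = 0.321). Myl12a rose in both doses, by 0.18 in Ep1 and 0.37 in Ep2 (limma, adjusted p = 0.0439 and 0.000163), and the Ep1 call was lost in 6 of 9 omissions of a library, under median centring (0.0505) and with no filter (0.114). Tpm3, chosen after its values were seen, rose in Ep1 by 0.17 (SE 0.0344, limma, adjusted p = 0.0187, lost in 4 of 9 omissions), against 0.03 in Ep2, and fell from Ep1 to Ep2 by 0.14 on the log2 scale (adjusted p = 0.00895), a call lost under median centring (0.0725). Actc1, the cardiac actin, had a mean of 0 FPKM in each group.

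Of SRF, its co-activators and cytoskeletal targets, 15 of 18 were tested, with 1 higher and 1 lower in Ep1 and 9 higher and 2 lower (Mkl1 and Flna) in Ep2, and medians of 0.04 and 0.25. The shares over all tested genes were 6.32% higher and 4.97% lower in Ep1, and 23.9% and 29.3% in Ep2. Srf itself rose by 0.19 in Ep1 and 0.17 in Ep2 (limma, adjusted p = 0.0408 and 0.0136), the former lost in 6 of 9 omissions and with no filter (0.106). Mkl1 (MRTF-A), its co-activator, fell from 9.44 ± 0.612 FPKM in Ctrl to 7.85 ± 0.164 in Ep1 and 7.21 ± 0.198 in Ep2 (log2 differences -0.24 and -0.35, limma, adjusted p = 0.0251 and 0.000503), the former lost in 5 of 9 omissions and with no filter (0.0696). The other MRTF co-activator, Mkl2 (MRTF-B), chosen after its values were seen, went the other way, from 3.75 ± 0.307 FPKM in Ctrl to 4.65 ± 0.176 in Ep2 (0.25, SE 0.0790, limma, adjusted p = 0.0229), a call lost with no filter and without Ctrl replicate 1 or 3 or Ep2 replicate 3 (0.0140 to 0.0839 over the omissions). Csrp1, a LIM-domain protein of actin bundles, went from 63.1 ± 0.375 FPKM in Ctrl to 115 ± 10.8 in Ep2 (0.85, SE 0.0699, limma, adjusted p = 1.62e-05) and stood at 65.1 ± 4.35 in Ep1. Vinculin (Vcl), which links actin to adhesions and was chosen after its values were seen, rose in Ep2 by 0.72 (SE 0.0430, limma, adjusted p = 4.03e-06). The smooth muscle co-activator Myocd averaged 0.00269 FPKM in Ctrl.

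All 15 stress fibre crosslinkers and focal adhesion genes were tested, with 1 higher and 1 lower in Ep1 and 6 higher and 2 lower (Actn4 and Flna) in Ep2, and medians of -0.04 and 0.10. Beside them, 6.32% of all tested genes were higher and 4.97% lower in Ep1, and 23.9% and 29.3% in Ep2. Pdlim5, an adaptor on α-actinin, rose from 14.6 ± 0.386 FPKM to 19.3 ± 0.716 in Ep1 and 26.7 ± 1.69 in Ep2 (log2 differences 0.38 and 0.83, limma, adjusted p = 0.00711 and 5.91e-06), and both calls held in all omissions. Actn4, an α-actinin crosslinker, fell in Ep2 by 0.26 on the log2 scale (SE 0.0407, limma, adjusted p = 0.000636). Lima1, a filament stabiliser, fell in Ep1 by 0.20 (limma, adjusted p = 0.0297), a call lost in 6 of 9 omissions and with no filter (0.0791).

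Genes of actin turnover gave the highest count, with 13 of 16 higher and 2 lower in Ep2, and 2 higher (Actr2 and Actr3) and 0 lower in Ep1, with medians of 0.36 and 0.055. Across all tested genes 23.9% were higher and 29.3% lower in Ep2, and 6.32% and 4.97% in Ep1. Dstn, which severs filaments, rose from 126 ± 5.65 FPKM to 217 ± 13.1 in Ep2 (0.78, SE 0.0511, limma, adjusted p = 5.98e-06), and Actr3, of the branching ARP2/3 complex, rose by 0.21 in Ep1 (0.0220, lost in 4 of 9 omissions and with no filter) and 0.55 in Ep2 (1.55e-05). The monomer-binding Tmsb4x, chosen after its values were seen, went from 104.5 ± 7.49 to 173 ± 12.9 FPKM (0.72, SE 0.0685, limma, adjusted p = 3.56e-05). The 2 that fell were cofilin (Cfl1), from 522 ± 8.08 FPKM to 420.3 ± 10.6 (-0.31, SE 0.0384, limma, adjusted p = 0.000143), and profilin (Pfn1, named for this count), from 517 ± 21.6 to 442 ± 22.2 (-0.22, SE 0.0468, limma, adjusted p = 0.00298). Both fell under median centring too. In Ep2 versus Ep1 the same list had 13 higher and 2 lower, against 18.8% and 25.2% of all genes.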

How the data were processed

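RNA sequencing (paired reads of 150 bases) covered 9 libraries, 3 per group, grouped by the names of the libraries. Reads were aligned to a mouse genome by the authors, who deposited 1 FPKM value per gene and library. The methods name GRCm39 and the submitters' processing notes mm8 and Bowtie 0.12.2, but 99.86% of 37624 genes compared overlap their GRCm38.p6 position in RefSeq (GRCm39 in GENCODE M39: 10.91% of 50453), so positions are given as GRCm38. The counting tool is not given in the sources used here. The values of the 9 single-library tables equalled the joint table (0 differences).

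Fragments were recovered as FPKM times gene length, divided by a step estimated for each library. Genes of lower count, where this was checked, came out whole within 0.05. The totals were 16240688 to 19509225 per library. limma 3.58.1 (R 4.3.3; lmFit, eBayes with trend and robust) was fitted to log2(FPKM + 1) of all genes at FPKM 1 or more in 3 or more of the libraries, over all 9 libraries without covariates, two-sided, with Benjamini-Hochberg adjustment over 11727 genes per comparison and a threshold of 0.05. The pseudocount pulls fold changes of low genes towards 0. The test behind the study's differentially expressed genes is not given in the sources used here. Tables and plots used Python 3.11.15, pandas 2.3.3, numpy 2.4.6 and matplotlib 3.10.9. The fit was also run on simulated data with the same spread in all groups and few changed genes. That run does not cover the wider spread and many changes of Ep2. The genes and lists were chosen with earlier results of these data known. Named from each list were the largest rise and fall among calls in Ep1 and Ep2 versus Ctrl. Others are marked, except Flna, Actr2, Actg1, Actc1 and Myocd, which were named outside this rule. Alternatives were median centring, no filter, a filter at FPKM 5, a pseudocount of 0.1, a replicate block, only the groups compared, voom on the recovered fragments (at least 10 in 3 libraries) and omission of each library. A further list of genes is not reported here.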

Additional observations from a re-analysis of the deposited data

How the results depend on the processing

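In Ep1 versus Ctrl the count of the 5 tested genes was 1, and it was 0 with no filter, 2 with the stricter filter, only the groups compared or voom, and 0 to 2 over the omissions of 1 library. All calls in that comparison, 1324, became 396 with no filter and 2217 with only the groups compared, and 192 to 2192 over the omissions. The fit takes 1 spread per gene for all groups, so its SE does not follow the spread of each group. Between replicate pairs, chi-square per degree of freedom on fragments ran from 5.00 to 15.25 in Ep2. It ran from 2.81 to 4.99 in Ctrl and from 3.19 to 5.66 in Ep1. In Ep2 versus Ctrl the 4 calls became 2 to 4 over the omissions, and in Ep2 versus Ep1 the 2 became 4 with median centring and 1 to 2 over the omissions. Tagln2 in Ep2 versus Ep1 turned to 0.014 with median centring and ran from -0.0816 to 0.0161 over the omissions, Actb in Ep1 versus Ctrl ran from -0.0583 to 0.0097, and Tpm2 in Ep2 versus Ctrl from -0.018 to 0.0569, none of them a call. The cause of these shifts was not tested. The calls of Cnn3 in Ep1 and of Tagln2 in Ep2 were lost with no filter (limma, adjusted p = 0.0857 and 0.0970), and the latter also with only the groups compared (0.0811). The difference of Cnn2 ran from 1.21 to 1.30 in Ep2 versus Ctrl over all settings. No pairing by replicate number was seen: deviations of same-numbered libraries correlated at -0.056 to 0.074, 0 of 9 pairs above 0.1. Differently numbered pairs ran from -0.108 to 0.153. Such correlations cannot tell whether libraries were handled together. With the replicate block 1, 4 and 2 genes passed in the 3 comparisons, in Ep1 Tagln2 (0.0461) in place of Cnn3 (0.0556), and Myl12a in Ep1 no longer passed (0.0768). Depth limits Cnn1, Tagln, Acta2 and Myl9, whose 0 to 13 fragments cannot show a moderate difference.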
